A study of Homo sapiens with 11 samples.

Results

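The Wnt signalling genes of Caki-1-SR clone 1 cells comprised 53 of the 26485 gene symbols in both count tables. They were chosen by name: every WNT, FZD, DKK or SFRP gene with a number (antisense names were left out), and LRP5, LRP6, AXIN1, AXIN2, LEF1, TCF7, TCF7L1, TCF7L2, RNF43, ZNRF3, NKD1, NKD2, LGR4, LGR5, CTNNB1 and APC. The choice was made with earlier results of these data known, so shares of these genes beside those of all genes are descriptive. Caki-1 is a line from a skin metastasis of a human clear cell renal cell carcinoma (ccRCC), and the -SR subline was made resistant to sunitinib, which blocks receptor tyrosine kinases, and grows in medium with 1 µM of that drug. The optimized drug combination (ODC) combined the ruthenium drug Rapta-C at 2 µM, the EGFR inhibitor erlotinib at 1 µM, the diabetes drug metformin at 1 µM and parthenolide, a plant lactone, at 5 µM. mRNA was sequenced from 3 control (CTRL) and 3 ODC libraries at 24 h, and from 2 CTRL and 3 ODC libraries at 2 h. All of them came from 1 resistant clone, and CTRL is called untreated in the study's results and sham-treated in its methods. The labels do not say that replicates were separate cultures, so the p-values measure the spread between these libraries, which may be technical. The titles of the 2 h and the 24 h libraries carry different months; what the month marks is not stated, and time and that month cannot be told apart.

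Wnt proteins are secreted lipid-modified ligands that bind Frizzled (FZD) receptors together with the coreceptors LRP5 or LRP6. Without a ligand, a destruction complex built on AXIN1, AXIN2 and APC marks beta-catenin (CTNNB1) for degradation, and with a ligand beta-catenin accumulates and activates target genes through TCF/LEF factors. AXIN2, LEF1, TCF7, ZNRF3, RNF43, NKD1, LGR5 and DKK1 are well-known targets that feed back on the pathway in many tissues, and AXIN2 is the most widely used readout of it. In the kidney, Wnt ligands direct tubule formation during development, and WNT7B is known there for its part in forming the medulla.

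The totals ran from 17785229 to 20882856 counts per library at 24 h and from 25782895 to 31118349 at 2 h. Values are given as CPM, the counts of a gene relative to its library's total after scaling by the TMM method, with factors from 0.969 to 1.02. The floor of 3 counts was worth between 0.0964 and 0.169 CPM before that scaling, and it covers counting error only. Of the 9 markers listed for a kidney epithelial line, PAX8 and the others summed to between 5274 and 7776 CPM, but PAX2 had at most 4 counts in a library. CTRL 2 h replicate 1 stood apart: it held 624 genes seen in no other library, against 53 to 146 in the others. The 10 markers of other cell types summed to 8.85 CPM in it, of which 6.00 CPM came from fibroblast markers, and to between 0.244 and 3.43 CPM in the others. None of the 10 markers was at 0 in that library. Results at 2 h are therefore also given without it, and the part of those cells' RNA in them was not tested.

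Only a few Wnt ligands had enough counts to be tested, while most of the receiving machinery did. Of the 53 genes, 25 passed the filter on low counts at 24 h and 27 at 2 h, where WNT5B and FZD9 were added. The other 26 never exceeded 17 counts in a library. Among them, WNT1, WNT8A, WNT8B, WNT9B, FZD8, DKK4, SFRP5 and NKD1 were at 0 in all 11 libraries. A further 9 (WNT2, WNT3A, WNT6, WNT7A, WNT9A, FZD10, SFRP1, SFRP2 and RNF43) stayed at 3 counts or below in each. The highest count was 4 for WNT10A, 13 for WNT10B, 10 for WNT11, 6 for WNT16, 6 for WNT4, 9 for WNT5A, 11 for FZD3, 17 for SFRP4 and 14 for NKD2. The largest counts of WNT11, WNT4, FZD3 and SFRP4 were all in CTRL 2 h replicate 1, where the 26 genes summed to 80 counts and 16 of them had a count, against 14 to 34 counts and 5 to 10 genes elsewhere.

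The roles differed in how many of their genes could be tested at 24 h. This was the case for 3 of 19 ligands, 6 of 10 Frizzled receptors, both LRP coreceptors and 3 of 4 Dickkopf inhibitors. None of the 4 secreted Frizzled-related inhibitors and none of the 2 Naked inhibitors could be tested. The test covered 3 of the 4 R-spondin receptors and receptor-removing ligases and all 4 TCF/LEF factors. It also covered APC, AXIN1 and AXIN2 of the destruction complex, and CTNNB1. Levels between genes were compared per length, as CPM per kilobase of exon averaged over the 11 libraries. On this scale CTNNB1 was highest (32.8), followed by FZD6 (25.7), DKK3 (22.1) and WNT7B (18.2). The ligand next in level, WNT3, was at 1.09, so WNT7B made up most of the ligand mRNA in these cells. LRP6 (9.30) and LGR4 (9.12) led the coreceptors and R-spondin receptors, and TCF7L1 (6.17) led the TCF/LEF factors in this average, though not in CTRL at 24 h. In CTRL at 24 h DKK3 (26.5) also stood above FZD6 (25.3). SFRP4 (0.0486) and NKD2 (0.0267) were the highest of their groups, both with few counts. DKK3, a divergent Dickkopf protein, shares 5681 bases of exon with USP47 on the opposite strand, and whether the counting used strand is not given in the sources used here, so its level is uncertain. The same doubt holds for WNT2B, which shares 2665 bases of exon with ST7L, and for FZD4, which shares 1399 with PRSS23.

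**Figure D1:**
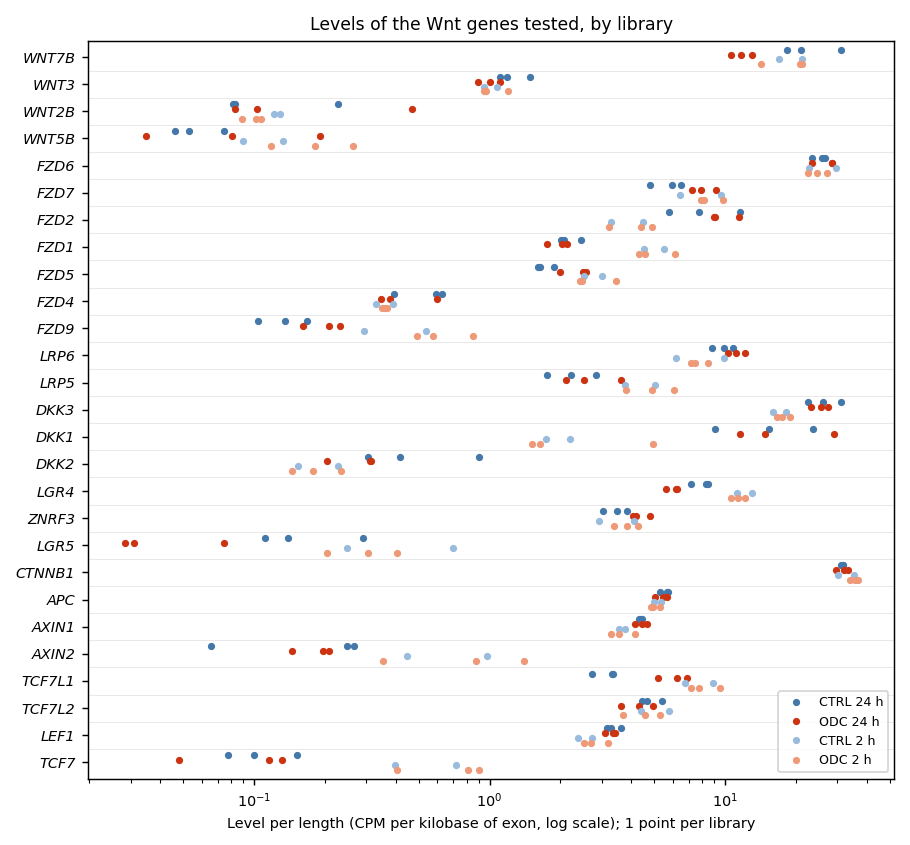
Level per length of the 27 Wnt genes tested at either time, grouped by role, on a log axis in CPM per kilobase of exon, with 1 point per library coloured by group. CTNNB1, FZD6, DKK3 and WNT7B lie at the high end, and the TCF7, AXIN2 and FZD9 points of the 2 h libraries lie above those of the 24 h libraries.

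After 24 h, no Wnt gene among the 25 that could be tested reached an adjusted p under 0.05 in edgeR's quasi-likelihood test, where 0.189% of all 12689 genes did. At an unadjusted p under 0.05 there were 7 of 25 (28%), against 12.2% of all genes tested. TCF7L1, FZD7, FZD5 and ZNRF3 were higher in the ODC libraries, and WNT7B, LGR4 and LGR5 were lower. Every ODC library lay on one side of every CTRL library in 7 of 25 genes (28%), against 17.9% of all genes tested. They were the same 7 genes. With 3 libraries per group, a small p and separate groups go together, so the separation adds no support to the p. LGR5 alone also differed at least 2-fold, as did 2.35% of all genes at that p, but it passed the filter only through the CTRL libraries, where it is high, and 2 of its ODC libraries were at the floor. The median log2 fold change of the 25 genes was -0.01, with 12 higher and 13 lower, and over all genes tested it was 0.00. These are bulk libraries, in which fewer cells of a type and less RNA per cell cannot be told apart.

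**Figure D2:**
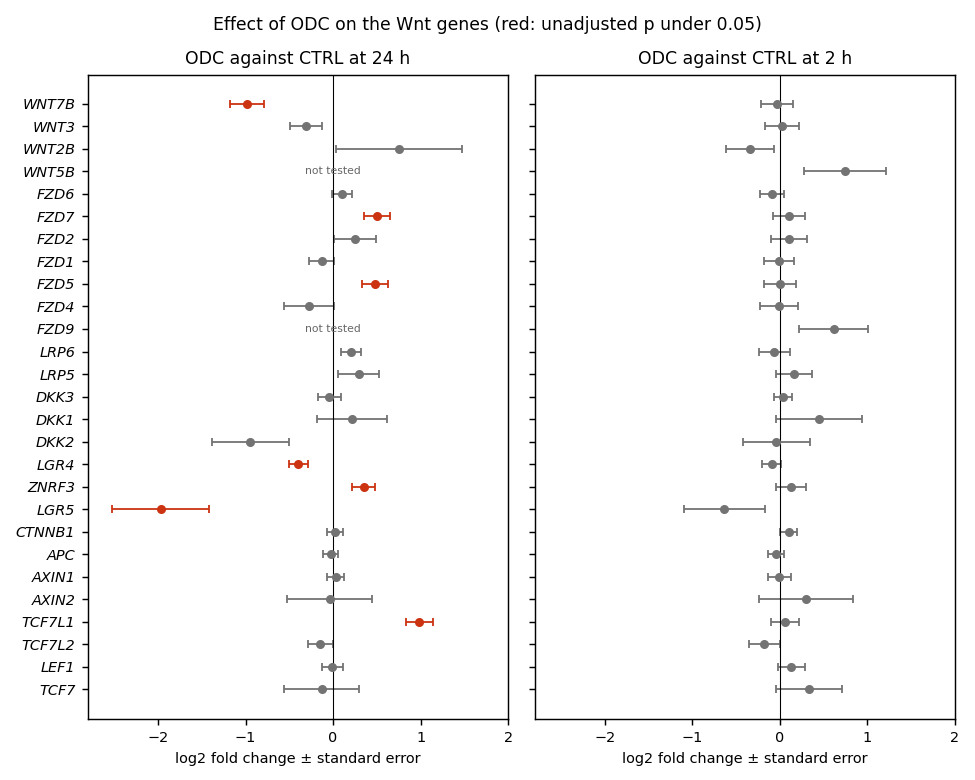
Log2 fold change of ODC against CTRL for each Wnt gene at 24 h (left) and at 2 h (right), with its standard error as a bar; red marks an unadjusted p under 0.05. The red points are 7 at 24 h and 0 at 2 h, and run from -1.97 (LGR5) to 0.98 (TCF7L1).

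Of the ligands, WNT7B was the one with an unadjusted p under 0.05 at 24 h. It was at 92.9, 159 and 107 CPM in the CTRL libraries and at 54.0, 59.3 and 66.5 CPM in the ODC libraries. The highest ODC library lay below the lowest CTRL library, and CTRL replicate 2 stood above the other two. The means were 119.5 ± 34.6 and 59.9 ± 6.24 CPM (SD, n = 3 each), a log2 fold change of -0.98 ± 0.20 (SE) with an adjusted p of 0.107. Without CTRL replicate 2 the log2 fold change was -0.72. WNT7B lies at chr22:45920366-45977162 on the minus strand (hg38). WNT3 (-0.31 ± 0.18, adjusted p = 0.562) and WNT2B (0.75 ± 0.72, adjusted p = 0.736) had overlapping groups. WNT2B was highest in replicate 2 of both groups, with 53 counts in CTRL and 108 in ODC against 18 to 26 in the other 24 h libraries. No label says that the groups share replicate numbers, and this gene was singled out after its values were seen.

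Among the Frizzled receptors, which bind the ligands at the cell surface, FZD7 and FZD5 were higher after 24 h of ODC. FZD7 (chr2:202033855-202038441, plus strand) was at 22.1, 29.9 and 27.4 CPM in CTRL and at 33.1, 36.3 and 41.9 CPM in ODC. The groups did not overlap, and the log2 fold change was 0.50 ± 0.15 (adjusted p = 0.231). FZD5 (chr2:207762598-207769906, minus strand) was at 11.3, 11.5 and 13.2 CPM in CTRL and at 14.1, 18.1 and 17.6 CPM in ODC, a log2 fold change of 0.48 ± 0.15 (adjusted p = 0.251). The gap between the groups was narrow, and without CTRL replicate 1 its unadjusted p was no longer under 0.05. FZD6, the most abundant receptor and one known to signal without beta-catenin, was at 94.7, 108 and 105 CPM in CTRL and at 116, 116 and 95.0 CPM in ODC. Its groups overlapped, with a log2 fold change of 0.10 ± 0.12 (adjusted p = 0.792). The other 3 receptors tested, FZD1, FZD2 and FZD4, had log2 fold changes from -0.27 to 0.25; each had an adjusted p of at least 0.739.

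The R-spondin receptors LGR4 and LGR5 were lower and the ligase ZNRF3 higher after 24 h of ODC. R-spondins bind LGR receptors and thereby withdraw ZNRF3 and RNF43, which otherwise remove Frizzled receptors from the cell surface. LGR4 (chr11:27365961-27472790, minus strand) was at 53.9, 52.8 and 45.7 CPM in CTRL and at 35.7, 39.6 and 39.2 CPM in ODC. No ODC library reached a CTRL library, and the log2 fold change was -0.40 ± 0.11 (adjusted p = 0.190). LGR5 (chr12:71439798-71586310, plus strand), also known as a stem cell marker, had only 31, 11 and 13 counts in CTRL and 3, 3 and 8 in ODC. It passed the filter through the CTRL libraries, and in 2 of the ODC libraries it was at the floor of 3 counts. Its levels were 1.51, 0.583 and 0.729 CPM in CTRL and 0.148, 0.161 and 0.390 CPM in ODC, with a log2 fold change of -1.97 ± 0.55 (adjusted p = 0.208). It shares 208 bases of exon with a gene on the opposite strand. ZNRF3 (chr22:28883572-29057488, plus strand) was at 24.3, 21.2 and 26.9 CPM in CTRL and at 28.4, 29.4 and 33.6 CPM in ODC. The log2 fold change of 0.35 ± 0.13 had an adjusted p of 0.322. This was the weakest of the 7, and its unadjusted p was no longer under 0.05 without CTRL replicate 1, without CTRL replicate 2 or without ODC replicate 3. RNF43, the partner of ZNRF3, had at most 3 counts in any library.

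TCF7L1, a TCF/LEF factor best known as a repressor of Wnt targets when beta-catenin is absent, had the smallest p of all 25 genes. It was at 12.1, 14.9 and 14.7 CPM in CTRL and at 27.6, 30.6 and 23.1 CPM in ODC. Every ODC library was well above every CTRL library, with means of 13.9 ± 1.58 and 27.1 ± 3.80 CPM (SD, n = 3 each). The log2 fold change was 0.98 ± 0.16 (adjusted p = 0.0685). Leaving out 1 library gave adjusted p from 0.0339, without ODC replicate 3, to 0.295, without ODC replicate 1. TCF7L1 lies at chr2:85133392-85310387 on the plus strand. The groups overlapped for the other TCF/LEF factors, and the log2 fold change was -0.15 ± 0.14 for TCF7L2 (adjusted p = 0.739), -0.01 ± 0.12 for LEF1 (adjusted p = 0.984) and -0.13 ± 0.43 for TCF7 (adjusted p = 0.936). TCF7L1 went from the lowest of the 3 abundant factors in CTRL at 24 h, at 3.13 CPM per kilobase against 3.35 for LEF1 and 4.82 for TCF7L2, to the highest in ODC, at 6.12 against 3.29 and 4.30.

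**Figure D3:**
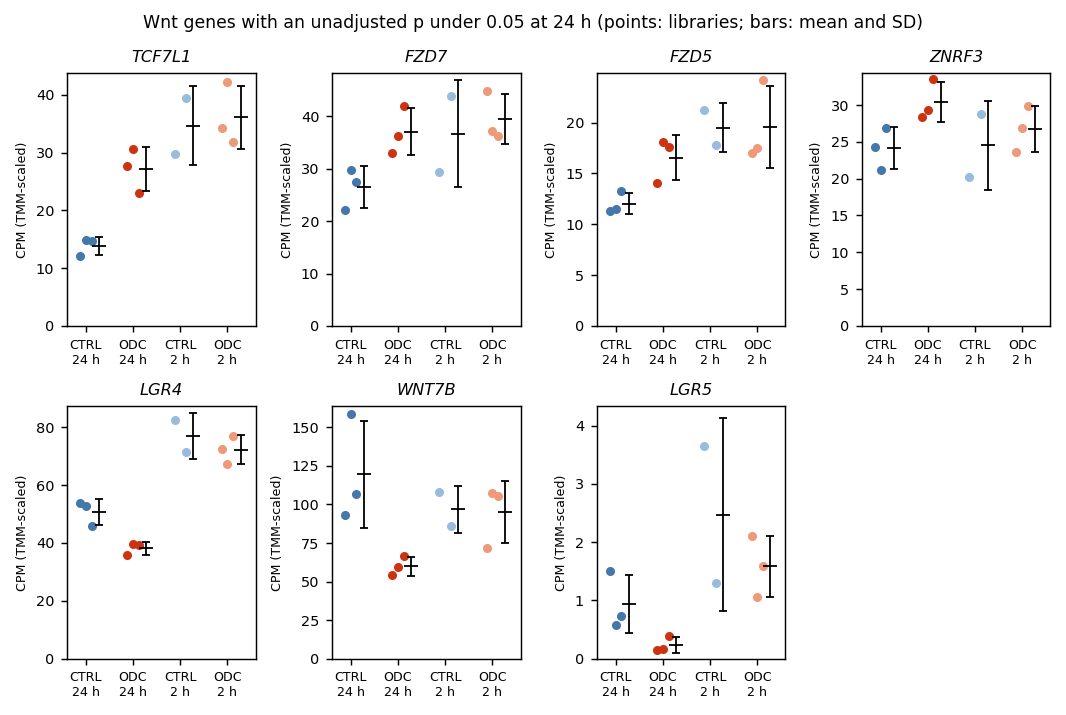
CPM of the 7 genes with an unadjusted p under 0.05 at 24 h in every library, with 1 panel per gene; the bars to the right of the points are the mean and SD of each group. At 24 h the CTRL and ODC points of each gene are separate, and at 2 h they overlap.

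Taking libraries of adjacent title numbers as pairs changed 3 of these calls. In that fit the adjusted p was 0.0149 for TCF7L1, 0.0185 for WNT7B and 0.0355 for FZD7, with log2 fold changes of 0.98, -0.95 and 0.51, and 5.41% of all genes passed the same threshold. Over all 14 alternatives the adjusted p ran from 1.54e-05 to 0.295 for TCF7L1, from 0.00038 to 0.361 for WNT7B and from 0.0355 to 0.703 for FZD7. At an unadjusted p under 0.05 the paired fit added DKK2 and LRP6 to the 7 genes, making 9 of 25, and it called 23.6% of all genes. The adjusted p of the paired fit was 0.0556 for LGR4, 0.0659 for FZD5, 0.0747 for LGR5 and 0.0754 for ZNRF3. No label says that the numbers mark pairs. The sums of the kidney epithelial markers did not overlap at 24 h, at 6444 to 7133 CPM in CTRL and 5274 to 6309 CPM in ODC. Of the 8 tested, 6 were lower in ODC and 2 higher. Without pairing, 3 were lower at an unadjusted p under 0.05 (37.5%, against 12.2% of all genes). These were KRT8, KRT18 and VIM, named after their values were seen. The part of the kidney epithelial markers in the Wnt gene differences was not tested. The 10 markers of other cell types summed to between 0.244 and 0.449 CPM in CTRL and between 0.683 and 0.861 CPM in ODC at 24 h, so these low sums did not overlap either, with 5 to 7 of the markers at 0 in each library; their part was not tested.

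The sequences just upstream were looked at for TCF7L1, FZD5 and LGR4. Of the 7 genes with an unadjusted p under 0.05 at 24 h, these are the 3 that RefSeq's promoter table (GRCh38.p14) lists. WNT7B, FZD7, LGR5 and ZNRF3 were not among its entries. The 250 bases before each start are printed from 5′ to 3′ on the gene's own strand, with each CG dinucleotide in capitals, the feature counted below.
TCF7L1, chr2:85133142-85133391, plus strand: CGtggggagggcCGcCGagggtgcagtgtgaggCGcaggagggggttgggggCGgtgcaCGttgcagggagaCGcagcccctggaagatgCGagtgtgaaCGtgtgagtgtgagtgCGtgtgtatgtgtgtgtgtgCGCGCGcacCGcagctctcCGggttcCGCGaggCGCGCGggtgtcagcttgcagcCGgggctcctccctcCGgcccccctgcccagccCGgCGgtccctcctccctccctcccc
FZD5, chr2:207769907-207770156, minus strand: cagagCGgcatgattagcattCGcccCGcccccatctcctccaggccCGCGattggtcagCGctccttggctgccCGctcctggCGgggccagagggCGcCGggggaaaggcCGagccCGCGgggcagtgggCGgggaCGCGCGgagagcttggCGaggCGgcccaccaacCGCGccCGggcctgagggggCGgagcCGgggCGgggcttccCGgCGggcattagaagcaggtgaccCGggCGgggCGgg
LGR4, chr11:27472791-27473040, minus strand: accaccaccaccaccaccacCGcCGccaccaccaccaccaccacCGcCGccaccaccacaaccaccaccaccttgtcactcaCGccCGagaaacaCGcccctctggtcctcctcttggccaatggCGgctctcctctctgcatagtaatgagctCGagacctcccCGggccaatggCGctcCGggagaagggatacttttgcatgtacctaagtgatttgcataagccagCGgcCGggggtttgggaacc
These stretches held 24 CG dinucleotides for TCF7L1, 30 for FZD5 and 14 for LGR4, and the median over all windows of this kind was 11 in the table and 21 for the listed Wnt genes, whose windows held 0 to 44. The LGR4 stretch opens with a run of CCA repeats. Over the 44 windows of 300 bases that the 36 listed Wnt genes have, the TCF/LEF core CTTTGAT was found on either strand in 0, against 2.62% of all 35116 windows. The antioxidant response element core TGACNNNGC was found in 3 (WNT2B, WNT2 and TCF7L2), against 13.3% of all windows. A match or its absence describes these letters in this window only.

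No coreceptor, Dickkopf inhibitor or gene of the destruction complex, nor CTNNB1, had an unadjusted p under 0.05 at 24 h without pairing. CTNNB1 was at 373, 372 and 366 CPM in CTRL and at 375, 392 and 347 CPM in ODC. The CTRL libraries lay within the range of the ODC libraries, and the log2 fold change was 0.02 ± 0.09 (adjusted p = 0.951). The genes of the destruction complex had log2 fold changes of -0.03 ± 0.09 for APC, 0.03 ± 0.10 for AXIN1 and -0.04 ± 0.48 for AXIN2. The coreceptor LRP6 was at 91.1, 112 and 103 CPM in CTRL and at 107, 126 and 116 CPM in ODC, with overlapping groups and a log2 fold change of 0.20 ± 0.11 (adjusted p = 0.533). Within adjacent pairs LRP6 was higher in ODC in 3 of 3, with a paired adjusted p of 0.118. LRP5 followed with 0.29 ± 0.24 (adjusted p = 0.685). DKK3 was at 310.5, 371 and 268 CPM in CTRL and at 277, 328 and 306 CPM in ODC, a log2 fold change of -0.04 ± 0.13 (adjusted p = 0.931). DKK2, an inhibitor or activator of LRP6 depending on the cell, had the next smallest p after the 7 genes, with means of 2.35 ± 1.39 and 1.20 ± 0.27 CPM and an adjusted p of 0.442; it was lower in ODC in 3 of 3 pairs, with a paired adjusted p of 0.135.

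Among the feedback targets, AXIN2, the common readout, was at 0.342 to 1.38 CPM in CTRL and 0.753 to 1.08 CPM in ODC at 24 h, and the standard error of its log2 fold change was 0.48. LEF1 was well above the floor, at 16.9 to 19.4 CPM in CTRL and 16.6 to 18.3 CPM in ODC, with a standard error of 0.12. NKD1 was at 0 throughout. ZNRF3 and LGR5 were the feedback genes with an unadjusted p under 0.05, the first higher and the second lower, though LGR5 was in the test only through its CTRL libraries. DKK1, a secreted inhibitor that binds LRP6, varied widely within both groups, with 701, 382 and 935 counts in CTRL and 668, 478 and 1318 in ODC. It was lowest in replicate 2 and highest in replicate 3 of both groups, but no label says that the groups share these numbers. Its log2 fold change was 0.21 ± 0.40 (adjusted p = 0.883). The pattern of DKK1 was singled out after its values were seen.

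**Figure D4:**
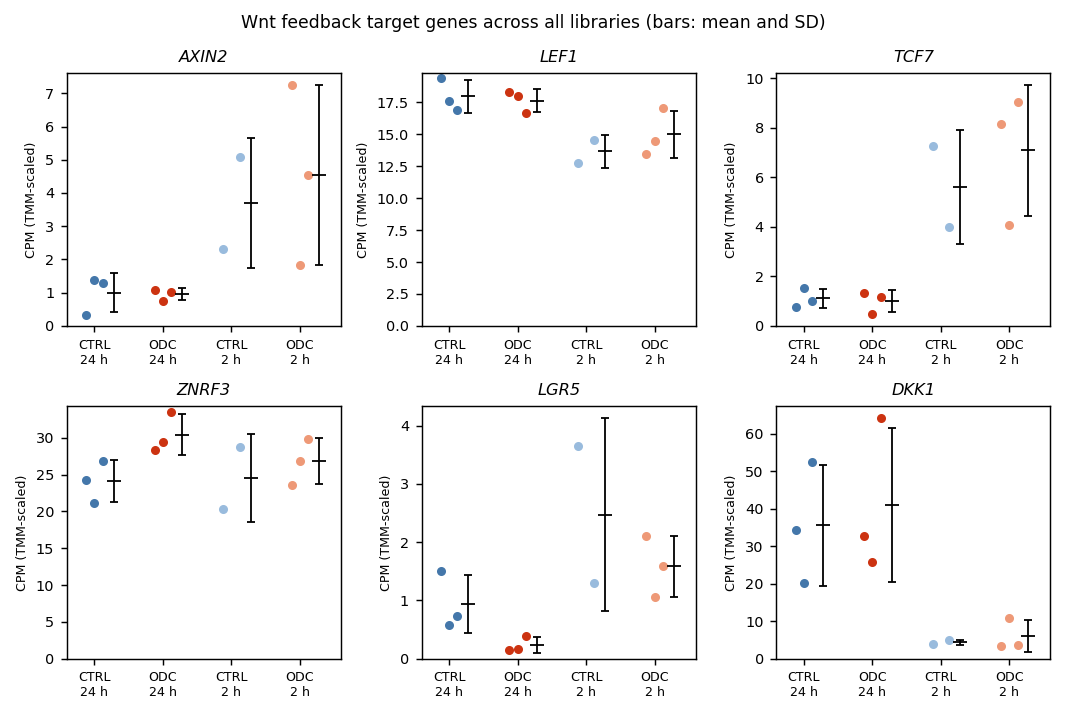
CPM of 6 feedback target genes in every library, with 1 panel per gene and the mean and SD of each group as bars. LEF1 and DKK1 overlap between CTRL and ODC at 24 h, and DKK1 is lower and AXIN2 and TCF7 are higher in all 2 h libraries than in all 24 h libraries.

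At 2 h, no Wnt gene among the 27 in the test reached an unadjusted p under 0.05, against 2.34% of all 13332 genes, and no gene of the whole table had an adjusted p under 0.05 in edgeR's test (0%). The median log2 fold change was 0.03, with 15 higher and 12 lower, against -0.01 over all genes tested. Log2 fold changes ran from -0.63 for LGR5 to 0.75 for WNT5B. The following are the 2 h values of the 7 genes with an unadjusted p under 0.05 at 24 h. WNT7B was at 107.8 and 86.2 CPM in CTRL and at 72.1, 107.5 and 106 CPM in ODC. TCF7L1 was at 29.8 and 39.5 CPM in CTRL and at 34.3, 42.3 and 31.9 CPM in ODC. In both genes the groups overlapped, with log2 fold changes of -0.03 ± 0.18 and 0.06 ± 0.16. The other 5 overlapped as well, with LGR4 at -0.09 ± 0.11, FZD5 at 0.00 ± 0.18, FZD7 at 0.11 ± 0.18, ZNRF3 at 0.13 ± 0.17 and LGR5 at -0.63 ± 0.46. WNT2B was the single gene with separate groups, at 1.60 and 1.51 CPM in CTRL and 1.10, 1.32 and 1.26 CPM in ODC, that is 3.7% of the genes against 15.2% of all genes. Its exons overlap those of ST7L on the opposite strand, so its level is uncertain.

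The 2 h results leaned on which CTRL library was used. Leaving out either leaves CTRL with 1 library, assumed to vary like the ODC libraries, which then alone give the spread. Without CTRL 2 h replicate 1, the library with the fibroblast markers, LRP6 was the 1 gene with an unadjusted p under 0.05 (log2 fold change -0.35), against 2.51% of all genes. Without CTRL 2 h replicate 2, there were 5: FZD7 (0.43), ZNRF3 (0.41), LGR5 (-1.19), SFRP4 and LRP6, now with the opposite sign (0.32). That fit called 8.72% of all genes and rests on the CTRL library that stood apart, and SFRP4 was tested in it through the 17 counts of that library. LRP6 was at 64.4 CPM in CTRL replicate 1 and 102 CPM in CTRL replicate 2, and the ODC libraries were at 77.2, 87.6 and 74.7 CPM, between them. LGR5 was at 3.65 CPM in CTRL replicate 1 and at 1.06 to 2.11 CPM in the other 4 libraries.

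The effects at 24 h and 2 h were compared directly in a joint fit of all 11 libraries. An unadjusted p under 0.05 was found for 2 of 27 genes, against 5.93% of all 13333 genes. For TCF7L1 the effect at 24 h minus that at 2 h was 0.91 ± 0.24 on the log2 scale (adjusted p = 0.512), and for WNT7B it was -0.97 ± 0.31 (adjusted p = 0.597). No Wnt gene had an adjusted p under 0.05, against 0.015% of all genes. The differences were 1.09 (adjusted p = 0.589) for TCF7L1 and -1.14 (adjusted p = 0.863) for WNT7B without CTRL 2 h replicate 1, where FZD7, LGR4, LGR5 and LRP6 also had an unadjusted p under 0.05, making 6 of 28; this fit called 5.32% of all genes and held 1 CTRL library at 2 h. For LGR4 the difference with all libraries was -0.32 ± 0.15 (adjusted p = 0.858).

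Between the 2 h and the 24 h libraries, whose titles carry different months, levels of several Wnt genes differed whatever the treatment. In 9 of 27 genes (33.3%) all 2 h libraries lay on one side of all 24 h libraries, against 27% of all genes tested, so the share is near that of the table as a whole; these genes were named after their values were seen. AXIN2 and TCF7 were higher at 2 h, at 1.83 to 7.26 CPM and 4.00 to 9.06 CPM, than at 24 h, at 0.342 to 1.38 CPM and 0.484 to 1.54 CPM. FZD1 (29.8 to 42.1 CPM, with at most 16.9 CPM at 24 h), FZD9, LRP5 and LGR4 were also higher at 2 h. DKK1 was lower, at 4.38 ± 0.71 CPM in CTRL and 5.99 ± 4.32 CPM in ODC against 20.2 to 64.3 CPM at 24 h, and so were FZD2 and DKK3. TCF7L1 was at 29.8 to 42.3 CPM in the 2 h libraries of both groups. Of the 24 h groups, ODC (23.1 to 30.6 CPM) lay closer to this range than CTRL (12.1 to 14.9 CPM). LGR4 went the other way, at 67.4 to 82.6 CPM in the 2 h libraries. Of its 24 h groups, CTRL (45.7 to 53.9 CPM) lay closer than ODC (35.7 to 39.6 CPM). Both patterns were singled out after their values were seen.

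The rest of the pathway was read from a list of 73 other Wnt genes covering ligand release, R-spondins, ROR and planar polarity receptors, Dishevelled proteins, kinases of the destruction complex and beta-catenin cofactors, of which 72 were in the table. At 24 h, 49 were tested, with 7 higher and 1 lower at an unadjusted p under 0.05 (16.3%, against 12.2% of all genes) and 0 at an adjusted p under 0.05, or 4 in the paired fit, against 5.41% of all genes. The 3 smallest p belonged to PRICKLE2, a planar polarity protein (0.50 ± 0.12, adjusted p = 0.163), NOTUM, an esterase that inactivates Wnt ligands by removing their lipid (1.08 ± 0.35, adjusted p = 0.27), and TLE4, a corepressor that binds TCF factors (0.43 ± 0.14, adjusted p = 0.272). PRICKLE2 shares 4116 bases of exon with genes on the opposite strand, so its level is uncertain. NOTUM rested on 9, 9 and 5 counts in CTRL and 19, 17 and 14 in ODC. It passed the filter only through the ODC libraries, where it is high. At 2 h, 52 were tested and 2 were higher (3.85%, against 2.34% of all genes): CXXC5, a nuclear protein that binds Dishevelled (0.50 ± 0.13), and the R-spondin RSPO3 (1.84 ± 0.77). RSPO3 had 7 and 7 counts in CTRL and 11, 20 and 53 in ODC, so it passed the filter only through the ODC libraries, and 1 of them held most of its counts. The third smallest p at 2 h was that of TNKS, a tankyrase that destabilizes AXIN proteins (-0.23 ± 0.11), with an unadjusted p above 0.05. The median log2 fold change of the list was 0.03 at 24 h and 0.01 at 2 h.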

How the data were processed

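The authors prepared stranded mRNA libraries, sequenced them as single-end reads, aligned them to hg38 with STAR and counted reads per gene with HTSeq. The submitters' processing notes name STAR 2.7.0f, HTSeq 0.9.1 and edgeR 3.26.8, and the study's methods name other STAR and edgeR versions. The deposited values are raw counts for 26485 symbols in 2 tables, one per time point, without normalization or filtering. The annotation and the strand setting of the counting are not given in the sources used here.

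Groups were compared on these counts with edgeR 4.0.16 in R 4.3.3 (earlier quasi-likelihood F test, two-sided, TMM factors, filterByExpr set to 10 counts and a total of 15, Benjamini-Hochberg adjustment over all genes tested), separately at each time; the effects were compared as a contrast in a joint fit. Levels per length used the exons of GENCODE release 44, which also gave the positions. No replicate pair agreed within sampling noise. The 24 h library numbers alternate between CTRL and ODC, and within adjacent pairs the libraries' deviations from their group's mean had correlations of 0.269, 0.628 and 0.49, against -0.571 to 0.245 otherwise. The tests were also run on simulated counts with the same spread for every gene and no pairing. These libraries differ from that setting, so the run cannot show how the tests behave here. Alternatives covered the filter, the scaling, the newer edgeR method, DESeq2 1.42.0, the pairing, the libraries in the fit and each library left out. Wnt genes with an unadjusted p under 0.05 in the main fits are shown in every library, in the text or a figure. So is the highest gene of each role that was tested, while SFRP4 and NKD2 are given by mean level and highest count. Of the further lists, those with an adjusted p under 0.05 or else the 3 smallest p are given. The Wnt genes and the lists were chosen with earlier results of these data known. Figures were drawn with matplotlib 3.10.9.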

Additional observations from a re-analysis of the deposited data

How the results depend on the processing

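The number of Wnt genes with an unadjusted p under 0.05 at 24 h ranged from 6 to 9 over 14 alternatives, against 7 as reported, while the share of all genes ran from 6.98% to 23.6%; the 9 and the 23.6% are those of the replicate block. The number with an adjusted p under 0.05 was 0 as reported, and 2 when all genes with any count were tested (0.522% of all genes), 2 with DESeq2 (2.98%), 2 with all 11 libraries in 1 fit (1.4%), TCF7L1 and WNT7B in each case, and 3 with adjacent title numbers as a replicate block (5.41%). Leaving out each library in turn gave 0 to 1 such genes at 24 h, 0 to 5 genes with an unadjusted p under 0.05 at 2 h, and 2 to 6 whose effects differed between the times. The 24 h log2 fold changes kept their sign under every alternative run at 24 h for WNT7B, TCF7L1, FZD7, FZD5, LGR4, LGR5 and ZNRF3. The CTRL and ODC groups of these genes did not overlap. Leaving out a library could therefore hardly change a sign, and the kept signs add no support. LGR5 was not tested under the filter of more than 1 CPM. Effects near 0 changed sign: that of CTNNB1 at 24 h was -0.0135 with library totals only, and that of FZD5 at 2 h was -0.00022 with the 1 CPM filter and -0.0019 with library totals only. With each library left out in turn, the log2 fold change at 24 h ran from -0.15 to 0.084 for DKK3 and from -0.030 to 0.075 for CTNNB1. At 2 h it ran from -0.18 to 0.15 for WNT7B, from -0.18 to 0.15 for FZD5, from -0.15 to 0.43 for FZD7, from -0.19 to 0.026 for LGR4, from -1.19 to 0.30 for LGR5, from -0.10 to 0.41 for ZNRF3, from -0.12 to 0.28 for TCF7L1, from -0.25 to 0.12 for FZD6, from -0.043 to 0.14 for DKK3 and from -0.35 to 0.32 for LRP6. The causes were not tested. With 2 CTRL libraries at 2 h, 1 of which stood apart, differences at that time are the least certain, and AXIN2, TCF7 and LGR5 are limited by their counts. No label gives replicate numbers that the groups share, so the block rests on title numbers alone.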

Other observations

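A list of 30 genes known as Wnt targets in other tissues, of which 29 were in the table and 21 were tested at 24 h, split in direction. At an unadjusted p under 0.05, 3 were higher and 5 lower after ODC (38.1%, against 12.2% of all genes), and 0 had an adjusted p under 0.05 in edgeR's quasi-likelihood test, or 5 with adjacent title numbers as pairs, where 5.41% of all genes passed. The list was chosen with earlier results of these data known. The 3 smallest p belonged to ID2, an inhibitor of helix-loop-helix factors (3.67 ± 1.77 CPM in CTRL and 10.9 ± 2.78 CPM in ODC, log2 fold change 1.59, adjusted p = 0.156), SOX2, a stem cell factor (8.91 ± 3.53 and 4.49 ± 0.72 CPM, -0.97, adjusted p = 0.236), and NOTUM, which the other pathway list also holds and which passed the filter only through its ODC libraries. At 2 h, 20 were tested and TNFRSF19, a receptor of the TNF family, was the 1 with an unadjusted p under 0.05 (0.34 ± 0.13), against 2.34% of all genes. The median log2 fold change of the list was -0.11 at 24 h and 0.07 at 2 h.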
